A study of Mus musculus with 16 samples.

Results

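Messenger RNA of 8 transcription factor genes of the circadian clock was described in mouse inguinal white adipose tissue, the subcutaneous fat of the groin. They were picked by gene symbol and are Arntl, Clock, Npas2, Rora, Nfil3, Dbp, Tef and Hlf. All 8 were found among the 55487 genes of the count table, and all 8 were among the 16549 genes with enough reads to be tested. The tissue came from 16 male mice aged 6 to 7 months, 4 in each of 4 groups. KO HFD animals lacked Kmo (kynurenine 3-monooxygenase, an enzyme of tryptophan breakdown) in the whole body and received a high-fat diet. WT HFD animals were wild-type littermates on the same diet, KO chow animals were knockouts on chow, and WT chow animals were wild-type littermates on chow. Kmo was missing from every cell type in the knockouts, so no effect can be assigned to fat cells. How long the diets were fed and the hour at which each fat pad was taken are not given in the sources used here. An hour that differed between diets and the diet itself therefore cannot be told apart. All HFD animals carried lower-numbered animal codes than all chow animals, and the library codes also split by diet. What these orders stand for is not given, and they cannot be told apart from the diet either.

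The circadian clock is a feedback loop present in most cells, fat cells included. The proteins of Arntl (also called BMAL1) and of Clock or Npas2 pair up and switch on genes that carry E-boxes, among them the Per, Cry and Nr1d genes and the output factors Dbp, Tef and Hlf. PER and CRY proteins then inhibit the activators. The nuclear receptor encoded by Rora activates genes with ROR elements, Arntl among them, and its competitors encoded by Nr1d1 and Nr1d2 repress them. DBP, TEF and HLF are related leucine zipper proteins that activate genes at D-boxes, and NFIL3 represses at the same sites. In mouse fat Arntl and Dbp transcripts cycle over the day and peak at roughly opposite hours.

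Promoter windows of the 8 genes were searched for these 3 elements, because the genes turned out to fall into a set that was higher and a set that was lower on the high-fat diet. RefSeq (GRCm38.p6) gave 12 windows for the 8 genes, each of 300 bases from 250 before to 50 after an annotated start site. Searched on both strands were the E-box CACGTG, the ROR element core TAGGTCA and the D-box TTANGTAA. The 4 windows with a match are shown with the match in capitals, each 5′ to 3′ on the strand of its gene.
Arntl, second start site, chr7:113207261-113207560, plus strand: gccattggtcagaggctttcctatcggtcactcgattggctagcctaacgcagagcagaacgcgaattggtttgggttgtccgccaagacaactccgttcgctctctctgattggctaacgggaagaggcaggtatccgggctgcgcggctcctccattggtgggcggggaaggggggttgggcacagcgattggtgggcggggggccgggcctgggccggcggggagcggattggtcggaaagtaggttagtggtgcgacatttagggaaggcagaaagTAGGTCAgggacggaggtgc
Nfil3, chr13:52980990-52981289, minus strand: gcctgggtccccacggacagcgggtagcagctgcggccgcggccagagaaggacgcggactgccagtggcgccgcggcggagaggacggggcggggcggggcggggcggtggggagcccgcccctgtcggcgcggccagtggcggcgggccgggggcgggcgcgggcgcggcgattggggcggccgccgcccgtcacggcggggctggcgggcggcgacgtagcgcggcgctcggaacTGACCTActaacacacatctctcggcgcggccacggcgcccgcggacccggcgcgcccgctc
Tef, first start site, chr15:81802423-81802722, plus strand: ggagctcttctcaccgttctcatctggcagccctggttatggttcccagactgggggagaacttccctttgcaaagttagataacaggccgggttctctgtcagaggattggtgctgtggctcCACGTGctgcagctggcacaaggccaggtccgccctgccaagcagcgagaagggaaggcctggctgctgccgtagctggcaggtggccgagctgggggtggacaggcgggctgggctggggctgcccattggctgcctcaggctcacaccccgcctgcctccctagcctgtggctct
Tef, second start site, chr15:81811164-81811463, plus strand: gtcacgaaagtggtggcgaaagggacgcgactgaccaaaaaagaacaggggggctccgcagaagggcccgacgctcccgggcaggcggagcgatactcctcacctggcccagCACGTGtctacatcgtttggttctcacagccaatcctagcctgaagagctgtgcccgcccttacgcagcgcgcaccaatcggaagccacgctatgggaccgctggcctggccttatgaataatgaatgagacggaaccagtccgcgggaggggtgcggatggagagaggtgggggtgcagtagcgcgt
The ROR element core began at position 30 after the start site of Arntl, where the start site is 0. In Nfil3 it stood on the opposite strand, as TGACCTA, at position −12. Each Tef window held 1 E-box, at −127 and −138. No D-box letters were present in any of the 12 windows, and the windows of Clock, Npas2, Rora, Dbp and Hlf held none of the 3 motifs. Of 32851 mouse promoter windows of this length, 7.15% held the E-box, 2.61% the ROR element core and 2.32% the D-box. These matches describe letters within a short window and do not show binding.

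Libraries held 13824404 to 16909361 counted read pairs, so 1 CPM (counts scaled to a common library size with TMM factors) stood for 14.1 to 16.5 counts. Kmo had 1, 2, 2 and 1 counts in KO HFD, 42, 215, 69 and 90 in WT HFD, 2, 8, 3 and 3 in KO chow and 117, 236, 40 and 298 in WT chow, so every knockout library lay below every wild-type library. All 8 adipocyte markers examined had counts in every library, with a summed level of 18580 to 34650 CPM. Markers of lymphocytes and skeletal muscle varied widely between animals. The 10 T cell markers, 9 of them with counts in every library, summed to 12.4 to 169.9 CPM in KO HFD, 8.12 to 109.6 in WT HFD, 19.7 to 398.3 in KO chow and 12.04 to 431.3 in WT chow. The 8 B cell markers summed to 5.21 to 547.6 CPM in KO HFD, 3.78 to 470.9 in WT HFD, 7.00 to 586.1 in KO chow and 6.52 to 667.6 in WT chow. The 12 skeletal muscle markers, of which Tnnc2 was at 0 in 11 libraries, summed to 46.2 to 473.5 CPM in KO HFD, 85.3 to 2290 in WT HFD, 18.25 to 892 in KO chow and 75.2 to 5238 in WT chow. Of 6 mammary epithelium markers, Wap was at 0 in all 16 libraries and the sum was at most 3.585 CPM.

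Both HFD libraries numbered 1, KO HFD replicate 1 and WT HFD replicate 1, stood apart from the other HFD libraries in these genes. The difference between Arntl and Dbp in log2 CPM was −1.50 in KO HFD replicate 1 and 2.57, 1.88 and 2.05 in the other KO HFD libraries. It was −2.35 in WT HFD replicate 1 and 2.16, 1.65 and 2.71 in the other WT HFD libraries. Chow libraries ran from −6.01 to −4.47 apart from KO chow replicate 1, at −3.69. Both HFD libraries thus lay between the chow libraries and the other HFD libraries. KO HFD replicate 1 came from lane 4 alone and had B cell markers at 547.6 CPM, whereas WT HFD replicate 1 was merged over lanes and had 10.1 CPM. Both came from the animals with the lowest-numbered codes, and what that order stands for is not given. These libraries were recognised from the values of the genes described here, and results are given with and without them.

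Levels between genes are compared as TPM, counts per length of the gene's exons. In KO HFD fat, Tef averaged 42.0 ± 14.6 TPM, Nfil3 36.6 ± 19.97, Clock 32.8 ± 4.98, Dbp 19.1 ± 19.5, Rora 15.6 ± 0.91, Arntl 14.5 ± 5.71, Hlf 7.02 ± 2.03 and Npas2 3.14 ± 2.003 (SD, n = 4). In WT HFD fat the order was the same from Tef (39.6 ± 22.004) to Npas2 (3.33 ± 2.75), except that Clock (30.9 ± 3.65) and Nfil3 (30.2 ± 14.8) changed places. On HFD the libraries of every neighbouring pair in these orders overlapped. On chow the D-box activators led, and the libraries of Dbp and Tef overlapped. Dbp averaged 153.7 ± 20.5 TPM and Tef 137.9 ± 33.4 in KO chow, and 156.0 ± 20.6 and 128.4 ± 19.7 in WT chow. Hlf followed at 23.5 ± 6.44 in KO chow and 23.2 ± 3.12 in WT chow. Rora, Clock and Nfil3 averaged between 8.23 and 14.6 TPM in both chow groups. Rora and Clock overlapped in both groups, while Nfil3 overlapped them in WT chow and lay below them in KO chow. Arntl (1.999 ± 1.39 in KO chow, 2.10 ± 0.88 in WT chow) and Npas2 (0.43 ± 0.34 and 0.64 ± 0.33 in the same order) were the lowest of the 8, and overlapped each other in KO chow but not in WT chow.

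**Figure D1:**
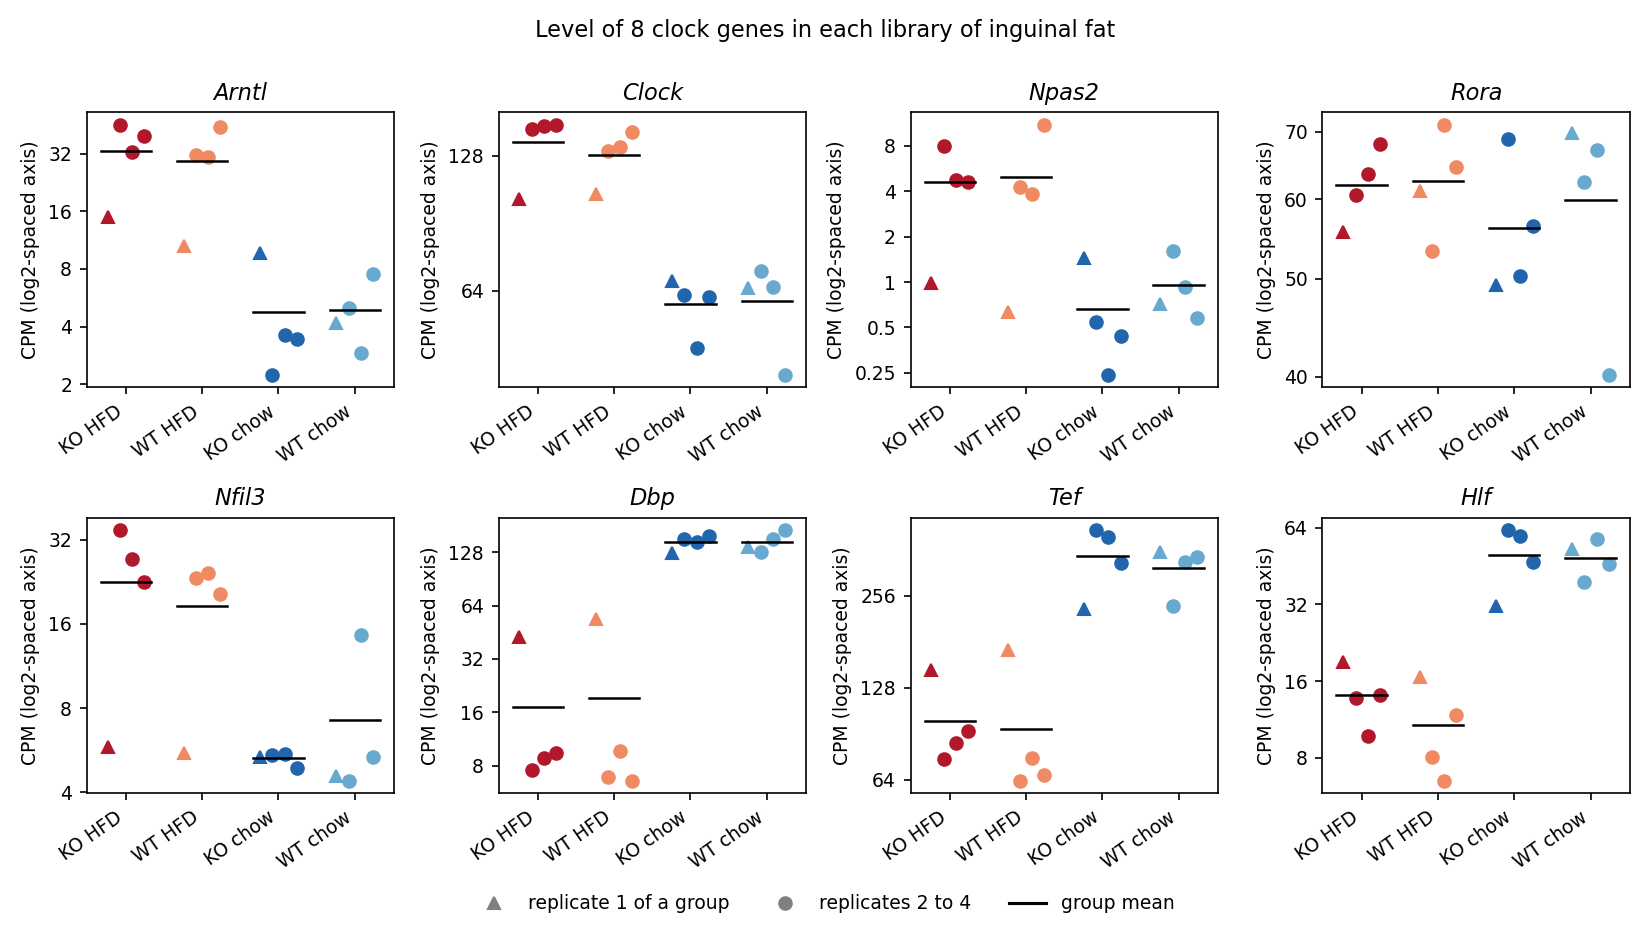
Level of each of the 8 genes in CPM on a log2-spaced axis (each panel has its own range), with 1 point per library in KO HFD, WT HFD, KO chow and WT chow fat, a triangle for replicate 1 of a group, circles for replicates 2 to 4 and a line at the group mean (n = 4). Arntl ran from 10.5 to 45.4 CPM on HFD and from 2.24 to 9.69 CPM on chow, and Dbp from 6.61 to 53.8 CPM on HFD and from 126.6 to 170.1 CPM on chow, with the triangles of both HFD groups nearest to chow.

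The comparison of HFD with chow asked how the diet goes with these genes in each genotype. In KO, Arntl, Clock, Npas2 and Nfil3 rose on HFD and Dbp, Tef and Hlf fell, so 7 of 8 genes passed the test (edgeR quasi-likelihood, Benjamini-Hochberg adjusted over 16549 genes, threshold 0.05). Of all genes tested in KO, 12.5% passed, 7.28% higher and 5.23% lower. In WT, Arntl and Clock rose and Dbp, Tef and Hlf fell, 5 of 8 genes, against 11.8% of all genes, 6.9% higher and 4.92% lower. Over both genotypes the same 7 genes as in KO passed, against 33.1% of all genes, 17.1% higher and 16% lower. The median log2 fold change of the 8 genes was 0.67 in KO and 0.57 in WT, against −0.04 and −0.03 over all genes, and joins genes that moved in opposite directions. The number of all genes higher and lower depended on the scaling: 1205 were higher and 866 lower in KO with TMM factors, 919 and 1113 with upper-quartile factors. In WT these were 1142 and 815 with TMM and 902 and 1031 with upper-quartile factors. Upper-quartile factors moved the median of all genes in KO to −0.10, and no call or direction of the 8 genes changed with them.

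With both HFD libraries numbered 1 left out, 7 of 8 genes passed in KO and 7 in WT, 4 higher and 3 lower in each. Of all 16773 genes in that fit, 1302 passed as higher and 880 as lower in KO. In WT these were 824 and 610. With KO chow replicate 1 left out as well, the counts of the 8 genes stayed at 7 in KO and 7 in WT, against 1646 and 1364 of all 16641 genes. The libraries left out were picked from values of the genes described here. These counts are therefore descriptions and no independent test of the calls. Single libraries decided several calls in the other direction. In KO, without replicate 2, 3 or 4 of KO HFD only 4 genes passed, Arntl, Clock, Tef and Hlf. All genes passing in these fits numbered 745 of 16888, 824 of 16841 and 1062 of 16919, in the same order. In WT, when only the libraries merged over lanes were used, 2 passed, Clock and Hlf, against 225 of 17230 genes. That setting left WT HFD with replicates 1 and 2, since replicates 3 and 4 came from lane 6 alone. Bulk tissue does not tell whether a transcript is lower because each cell holds less of it or because fewer cells of a type are present. Summed T cell markers had a median of 14.98 CPM in KO HFD, against 93.5 in KO chow, and 27.98 in WT HFD, against 119.5 in WT chow. For B cell markers the medians were 12.35 CPM in KO HFD, against 204.1 in KO chow, and 17.95 in WT HFD, against 246.8 in WT chow. Adipocyte markers were higher on HFD, with 27700 to 34650 CPM in KO HFD, against 21200 to 29870 in KO chow, and 27290 to 34120 in WT HFD, against 18580 to 26500 in WT chow, where the groups did not overlap. The part of the adipocyte markers in these results was not tested. With a lymphocyte marker score as a covariate, Arntl, Clock, Dbp, Tef and Hlf passed in both genotypes and Npas2 and Nfil3 in neither.

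**Figure D2:**
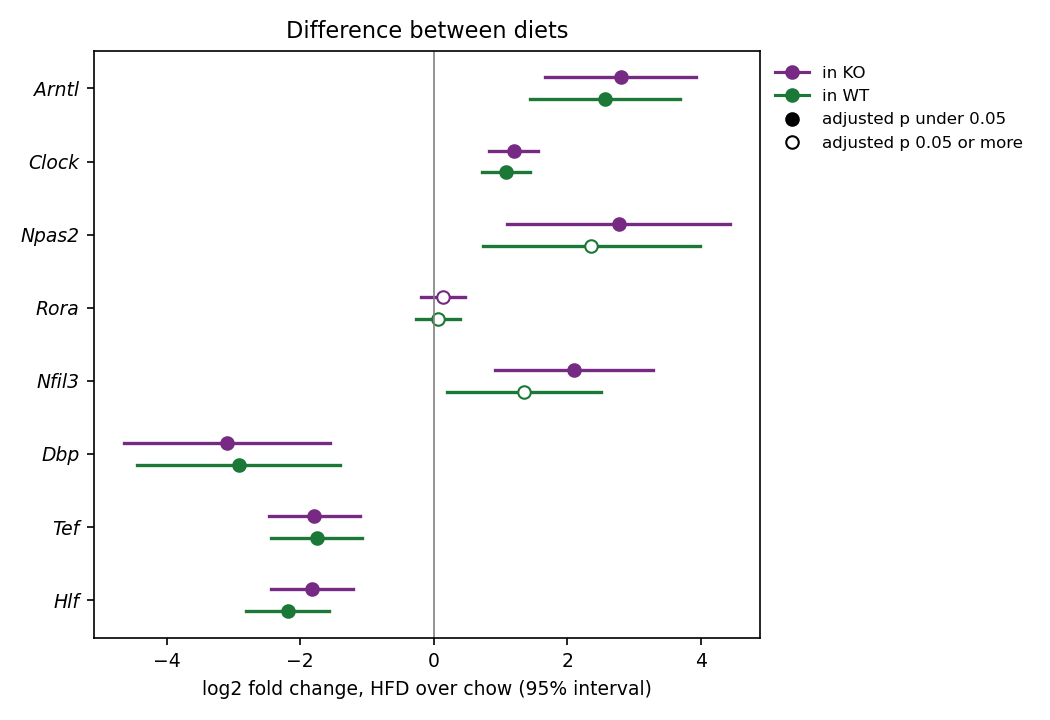
Log2 fold change of HFD over chow for each gene, in KO and in WT, with its 95% interval. Filled points passed an adjusted p of 0.05 and open points did not. Arntl, Clock, Npas2 and Nfil3 lie right of 0 and Dbp, Tef and Hlf left of 0 in both genotypes, and the intervals of Rora cross 0.

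Arntl (ENSMUSG00000055116, GRCm38 chromosome 7, 113207465 to 113314126, plus strand) encodes a protein that pairs with those of Clock and Npas2. Its level was 15.01, 45.4, 32.8 and 39.4 CPM in KO HFD, against 9.69, 2.24, 3.63 and 3.44 CPM in KO chow. It was 10.5, 31.5, 30.6 and 44.1 CPM in WT HFD, against 4.17, 5.03, 2.93 and 7.53 CPM in WT chow. All 8 HFD libraries were above all 8 chow libraries, and the lowest HFD value (10.5) stood close to the highest chow value (9.69). Arntl was 6.97-fold higher in KO (log2 fold change 2.80, SE 0.53, edgeR adjusted p = 0.00725) and 5.92-fold higher in WT (2.57, SE 0.52, edgeR adjusted p = 0.00955). With both HFD libraries numbered 1 left out the log2 fold changes were 3.04 and 2.85. Without KO chow replicate 1 as well, the value in KO was 3.66.

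Clock (ENSMUSG00000029238, chromosome 5, 76209868 to 76304792, minus strand), the partner of Arntl that is expressed most steadily over the day in many tissues, had 102.5, 146.8, 148.9 and 150.2 CPM in KO HFD, against 67.2, 62.5, 47.6 and 61.9 CPM in KO chow. In WT HFD it had 105.2, 130.9, 134.2 and 144.4 CPM, against 65.0, 70.7, 65.1 and 41.6 CPM in WT chow. No HFD library overlapped a chow library, although replicate 1 was the lowest in each HFD group. The difference was 2.29-fold in KO (log2 fold change 1.196, SE 0.17, edgeR adjusted p = 0.00203) and 2.12-fold in WT (1.09, SE 0.17, edgeR adjusted p = 0.00283). Its SE was the smallest among the 7 genes that passed over both genotypes, and both calls held whichever library was left out.

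Npas2 (ENSMUSG00000026077, chromosome 1, 39193731 to 39363236, plus strand), which can stand in for Clock, was the least abundant, with 4 to 176 counts per library. Its level was 0.99, 8.01, 4.73 and 4.603 CPM in KO HFD, against 1.45, 0.54, 0.24 and 0.44 CPM in KO chow. It was 0.64, 4.28, 3.86 and 11.1 CPM in WT HFD, against 0.72, 1.61, 0.93 and 0.57 CPM in WT chow. Replicate 1 of each HFD group lay within the chow range and the other 6 HFD libraries lay above it. In KO the log2 fold change was 2.77 (SE 0.78, edgeR adjusted p = 0.0336), and in WT 2.36 (SE 0.76, edgeR adjusted p = 0.0558), past the threshold in KO and not in WT. The call in KO was lost without KO chow replicate 2, 3 or 4 or KO HFD replicate 2, 3 or 4, with an edgeR adjusted p of up to 0.102. It was also lost with no filter on low counts (edgeR adjusted p = 0.087), with the lymphocyte marker score (0.0743), with the replicate number as a block (0.106) and in limma-voom (0.0634). In WT the gene passed without WT HFD replicate 1 (log2 fold change 2.73, edgeR adjusted p = 0.0254) or without KO HFD replicate 1 (2.36, edgeR adjusted p = 0.0401), which enters through the shared estimate of the spread. DESeq2 also called it in WT (adjusted p = 0.0112).

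Rora (ENSMUSG00000032238, chromosome 9, 68653786 to 69388246, plus strand), the receptor that activates Arntl, was the gene that did not pass in any comparison. It had 55.7, 60.6, 63.6 and 68.1 CPM in KO HFD, against 49.3, 68.9, 50.3 and 56.4 CPM in KO chow. In WT HFD it had 61.1, 53.4, 71.2 and 64.6 CPM, against 69.9, 62.4, 67.2 and 40.2 CPM in WT chow. All 4 groups overlapped, and replicate 1 of the HFD groups did not stand apart. The log2 fold change was 0.14 in KO (95% interval −0.19 to 0.47, edgeR adjusted p = 0.573) and 0.06 in WT (−0.27 to 0.39, edgeR adjusted p = 0.818). The intervals leave room for a rise of 1.39-fold in KO and 1.31-fold in WT. The sign in WT turned without WT chow replicate 4 (−0.09) or WT HFD replicate 3 (−0.0028).

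Nfil3 (ENSMUSG00000056749, chromosome 13, 52967209 to 52981073, minus strand) encodes the repressor at D-boxes, and its promoter window with the ROR element core is printed with those above. Its level was 5.81, 34.6, 27.4 and 22.7 CPM in KO HFD, against 5.35, 5.43, 5.50 and 4.88 CPM in KO chow. It was 5.53, 23.4, 24.4 and 20.5 CPM in WT HFD, against 4.56, 4.41, 14.6 and 5.36 CPM in WT chow. The other 6 libraries of HFD-fed animals were above all chow libraries, while both HFD libraries numbered 1 stood at the level of most chow libraries and WT chow replicate 3 was raised. In KO the log2 fold change was 2.10 (SE 0.55, edgeR adjusted p = 0.0265), and in WT 1.35 (SE 0.54, edgeR adjusted p = 0.112). The call in KO was lost without KO chow replicate 1, 2 or 3 or KO HFD replicate 2, 3 or 4, with an edgeR adjusted p of up to 0.082, with no filter on low counts (0.0714) and with the lymphocyte marker score (0.0609). In WT the gene passed without WT chow replicate 3 (log2 fold change 1.95, edgeR adjusted p = 0.0315) and with DESeq2 (adjusted p = 0.0415).

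Dbp (ENSMUSG00000059824, chromosome 7, 45705088 to 45710203, plus strand), the D-box activator with the widest daily swing in many mouse tissues, differed most of the 8. It had 42.6, 7.54, 8.84 and 9.41 CPM in KO HFD, against 126.6, 151.9, 146.5 and 157.7 CPM in KO chow. It had 53.8, 6.96, 9.64 and 6.61 CPM in WT HFD, against 136.0, 128.0, 150.9 and 170.1 CPM in WT chow. Every HFD library was below every chow library, and replicate 1 of each HFD group was several times above the other 3. Dbp was 8.54-fold lower in KO (log2 fold change −3.09, SE 0.71, edgeR adjusted p = 0.0167) and 7.59-fold lower in WT (−2.92, SE 0.71, edgeR adjusted p = 0.0214). Without both HFD libraries numbered 1 the log2 fold changes were −4.08 in KO and −4.23 in WT. Those libraries were recognised in part from Dbp and held its highest HFD values, so leaving them out necessarily narrows the spread. No p-value is given for that fit.

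With those libraries kept, the Dbp calls were close to the threshold. In KO the call was lost without KO HFD replicate 2, 3 or 4 (edgeR adjusted p = 0.0581, 0.0584 and 0.0517). In WT it was lost without WT HFD replicate 2 or 3 or WT chow replicate 4 (edgeR adjusted p = 0.055, 0.0715 and 0.0532), with no filter on low counts (0.0505) and in a fit of the 8 WT libraries alone (0.0609). The DESeq2 fit run here returned no adjusted p for Dbp in any comparison. Reads were counted without strand, and 539 exon bases of Dbp (18% of its exon length) are shared with Sphk2 on the opposite strand. Sphk2, a sphingosine kinase, had at most 615 counts in a library and moved the other way, by a log2 fold change of 0.70 in KO (edgeR adjusted p = 0.01) and 0.57 in WT (0.0239).

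Tef (ENSMUSG00000022389, chromosome 15, 81802421 to 81826863, plus strand), the second D-box activator, carries E-box letters in both promoter windows printed above. It had 147.1, 74.9, 84.3 and 92.6 CPM in KO HFD, against 232.1, 420.3, 399.5 and 327.4 CPM in KO chow. It had 171.0, 63.7, 75.2 and 66.2 CPM in WT HFD, against 355.4, 238.1, 331.8 and 343.9 CPM in WT chow. The diets did not overlap, replicate 1 was the highest of each HFD group, and KO chow replicate 1 was the lowest chow library. Tef was 3.46-fold lower in KO (log2 fold change −1.79, SE 0.32, edgeR adjusted p = 0.00565) and 3.37-fold lower in WT (−1.75, SE 0.32, edgeR adjusted p = 0.00568). Both calls held whichever single library was left out, and without both HFD libraries numbered 1 the log2 fold changes were −2.035 in KO and −2.21 in WT.

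Hlf (ENSMUSG00000003949, chromosome 11, 90336536 to 90390895, minus strand), the third D-box activator, had 18.98, 13.7, 9.76 and 14.2 CPM in KO HFD, against 31.6, 62.5, 59.2 and 46.8 CPM in KO chow. In WT HFD it had 16.6, 8.04, 6.52 and 11.8 CPM, against 52.7, 39.0, 57.5 and 46.1 CPM in WT chow. The diets did not overlap, and replicate 1 was again the highest of each HFD group, by less than in Dbp or Tef. Hlf was 3.54-fold lower in KO (log2 fold change −1.82, SE 0.29, edgeR adjusted p = 0.00389) and 4.55-fold lower in WT (−2.18, SE 0.29, edgeR adjusted p = 0.00151). Over both genotypes, Arntl, Clock, Dbp, Tef and Hlf, 5 of the 8 genes, had no overlap between the 8 HFD and the 8 chow libraries, as had 6.85% of all genes tested.

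The comparison of KO with WT asked whether loss of Kmo goes with a different level of these genes. On HFD none of the 8 passed, and none had an unadjusted p under 0.05 in edgeR. Their log2 fold changes ran from −0.18 for Dbp (95% interval −1.64 to 1.29) to 0.40 for Hlf (−0.21 to 1.01, unadjusted p = 0.184), with an edgeR adjusted p of 1 for each. Among all genes tested 0.00604% passed, which is Kmo alone, and 188 genes (1.14%) had an unadjusted p under 0.05. The sign of Dbp turned when WT HFD replicate 1 was left out (1.13), without KO HFD replicate 2, 3 or 4 (0.0687, 0.0392 and 0.0216) and without both HFD libraries numbered 1 (0.15), so no direction can be given for it. DESeq2 and limma-voom called none of the 8 either, where DESeq2 gave an adjusted p.

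On chow likewise none of the 8 passed. Log2 fold changes ran from −0.52 for Npas2 (95% interval −2.21 to 1.17) to 0.12 for Tef (−0.54 to 0.78), again with an edgeR adjusted p of 1, and 0.00604% of all genes passed. Over both diets the range was −0.32 for Npas2 to 0.22 for Hlf, with 0.00604% of all genes called. How much the data limit a difference varied by gene. For Rora over both diets the 95% interval ran from 0.82-fold to 1.13-fold, and for Clock from 0.86-fold to 1.22-fold. For Tef it ran from 0.78-fold to 1.49-fold and for Hlf from 0.87-fold to 1.56-fold. The intervals were wide for Arntl (0.62-fold to 1.77-fold), Nfil3 (0.54-fold to 1.65-fold), Dbp (0.46-fold to 1.90-fold) and Npas2 (0.37-fold to 1.75-fold). A difference of 1.5-fold in either direction is outside the interval for Rora, Clock and Tef and inside it for Arntl, Npas2, Nfil3 and Dbp. For Hlf only a 1.5-fold higher level in KO is inside it. In the authors' deposited table on HFD, Dbp has no p-value, and the adjusted p of the other 7 genes is 1.

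**Figure D3:**
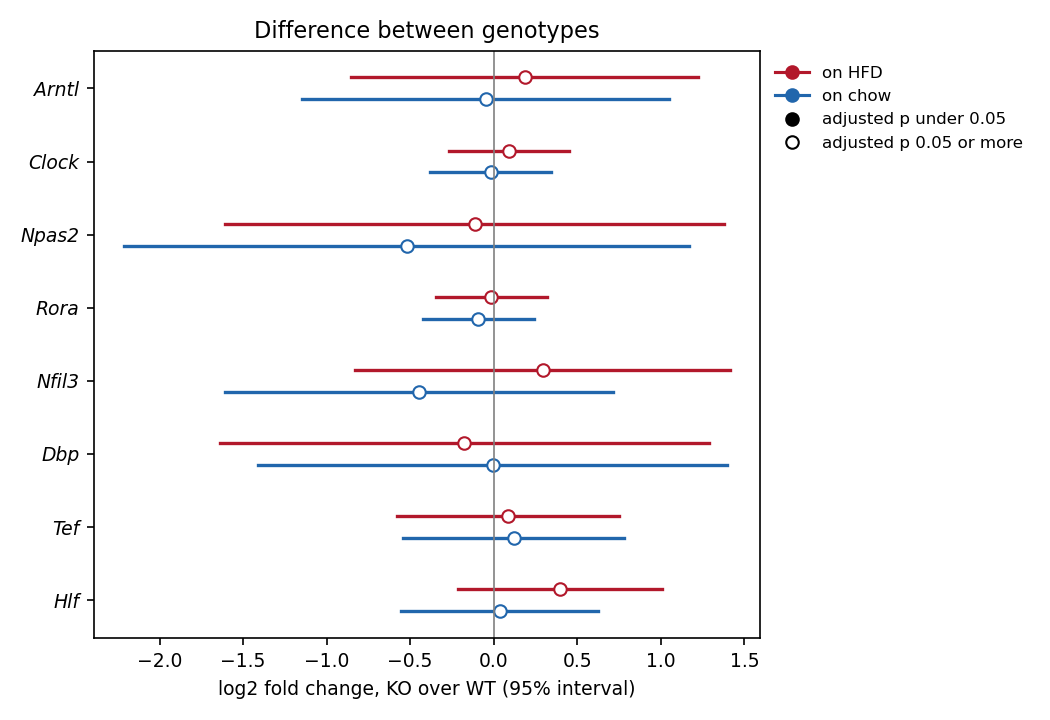
Log2 fold change of KO over WT for each gene, on HFD and on chow, with its 95% interval. All points are open (adjusted p of 0.05 or more) and all intervals include 0, and those of Clock and Rora are the narrowest.

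The interaction asked whether the diet difference itself differs between KO and WT. It was past the threshold for none of the 8 genes and for 0 of 16549 genes in all (edgeR), of which 187 had an unadjusted p under 0.05. Npas2 and Nfil3, which passed in KO and not in WT, had interaction log2 values of 0.41 (95% interval −1.83 to 2.65) and 0.74 (−0.87 to 2.36). Dbp had the lowest, at −0.17 (−2.20 to 1.86), with a sign that turned to 1.14 without WT HFD replicate 1. The data therefore do not show a different diet effect for any of the 8, nor do these intervals exclude a sizeable one for Npas2, Nfil3 and Dbp. The same holds for Arntl (−1.28 to 1.75), Hlf (−0.48 to 1.21) and Tef (−0.97 to 0.90). Intervals were narrower for Clock (−0.40 to 0.62) and Rora (−0.39 to 0.55).

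Within groups some of the genes varied together. After subtraction of the 4 group means from log2 CPM, 11 of 28 pairs of genes passed a 2-sided permutation test of Pearson's r with libraries shuffled within groups, adjusted by Benjamini and Hochberg over the 28 pairs. Of these 4 were positive and 7 negative. The share that passes among pairs of all genes was not computed. Set against genes with at least 5 CPM on average, r with Arntl put Npas2 at percentile 99.9, Nfil3 at 97.4 and Clock at 90.3. Npas2 itself averaged less than 5 CPM. Rora stood at 15.2, Hlf at 0.36, Dbp at 0.21 and Tef at 0.018. By r with Dbp, Tef stood at percentile 100 after rounding (Nr1d2 was higher), Hlf at 98.9, Rora at 33.9 and Clock at 0.80. Arntl stood at 0.19, Nfil3 at 0.018 and Npas2 at 0. Npas2 and Tef had r = −0.92 (permutation p = 0.00056, adjusted 0.00392) and rho = −0.90 (permutation p = 0.00085) over 16 libraries. Dbp and Tef had r = 0.88 (permutation p = 0.00046, adjusted 0.00392) and rho = 0.80 (permutation p = 0.00153). Arntl and Dbp had r = −0.75 (permutation p = 0.00697, adjusted 0.0197) and rho = −0.69 (permutation p = 0.0106). Clock and Npas2 had r = 0.77 (permutation p = 0.0001, adjusted 0.00266) and rho = 0.81 (permutation p = 0.00035). Rora was in none of the 11 pairs, and neither was Nfil3.

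How far these relations depended on the libraries that stood apart differed by pair. With the 2 libraries farthest from the median left out, no pair passed the adjusted threshold, and likewise with both HFD libraries numbered 1 left out, in both cases with fewer libraries in the test. Without WT HFD replicate 1 alone, or without KO HFD replicate 1 alone, 4 pairs passed. With both left out, r was −0.77 for Npas2 and Tef, 0.63 for Dbp and Tef and −0.33 for Arntl and Dbp, so that the relation of Arntl and Dbp rested on those libraries. Within the 8 HFD libraries r was −0.98 for Arntl and Dbp, and within the 8 chow libraries it was −0.30. For Npas2 and Tef it was −0.94 within HFD and −0.87 within chow, and for Tef and Hlf 0.74 within HFD and 0.94 within chow. Nfil3 and Dbp had r = −0.97 within HFD and 0.25 within chow. With both HFD libraries numbered 1 left out r was 0.11 for this pair, so its negative relation also rested on those libraries.

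**Figure D4:**
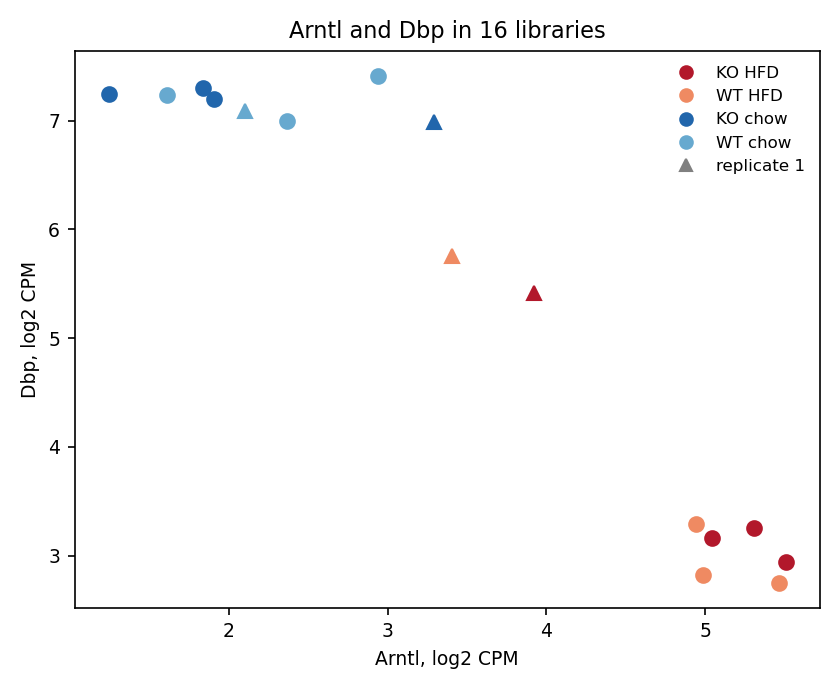
Log2 CPM of Dbp against log2 CPM of Arntl in the 16 libraries, coloured by group, with a triangle for replicate 1 of each group. Chow libraries lie at high Dbp, 6 HFD libraries at low Dbp and high Arntl, and the triangles of KO HFD and WT HFD between them. Among chow libraries Dbp spans little while Arntl spans 2.24 to 9.69 CPM.

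Other genes of the loop were counted on lists. Of 10 clock repressors, 7 fell on HFD and none rose in KO, and 7 fell and 1 rose in WT. Of all genes 5.23% fell and 7.28% rose in KO, and 4.92% fell and 6.9% rose in WT. Over both genotypes 8 repressors fell and 2 rose, against 16% and 17.1% of all genes (median log2 fold change −1.61, against −0.04 over all genes). Bhlhe40 and Bhlhe41, repressors that bind E-boxes, fell by 2.21 and 1.94 on the log2 scale over both genotypes. Ciart, another repressor of CLOCK and BMAL1, fell by 3.25 and Per3 by 1.90. The 2 that rose were Cry1 (0.97, edgeR adjusted p = 0.00307) and Cry2 (0.25, edgeR adjusted p = 0.0425). In WT the count of repressors that passed ranged from 4 without WT HFD replicate 3 and 5 without WT chow replicate 1 to 9 without WT HFD replicate 1. All genes passing numbered 689 of 16888 and 923 of 16847 in the first 2 of these fits. Over all fits with 1 library left out they ranged from 689 to 2400 in WT.

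Among receptors and partners related to the 8 genes, Arntl2, the close relative of Arntl, had a log2 fold change of −0.72 in KO and −0.60 in WT, without passing. Over both genotypes it fell (−0.66, edgeR adjusted p = 0.0105), opposite to Arntl. The liver X receptor genes Nr1h2 (−0.20, edgeR adjusted p = 0.0264) and Nr1h3 (0.22, edgeR adjusted p = 0.0442) also passed over both genotypes, and neither passed in KO or in WT alone.

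Among 12 clock protein kinases, ubiquitin ligase adaptors and associated proteins, 1 rose and 1 fell in each genotype, 2 of 12 against 12.5% of all genes called in KO and 11.8% in WT, so the list did not stand out by its count. Gsk3b, a kinase of clock proteins, rose by a log2 fold change of 0.49 in KO and 0.43 in WT, and Sirt1, a deacetylase, fell by 0.59 in KO and 0.46 in WT on the log2 scale. Of 8 output genes rhythmic in many mouse organs, 3 fell and 1 rose in each genotype, against the same shares of all genes. Tspan4, Nampt (the enzyme that limits NAD salvage) and Por (cytochrome P450 reductase) fell by 0.79, 0.72 and 0.67 over both genotypes, and Lonrf3 rose by 1.80. Between genotypes none of these 40 genes passed on either diet, with edgeR, and the interaction passed for none.

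Genes were ranked by how closely their deviations from the group means followed those of Dbp over the 16 libraries. Pearson's r of group-centred log2 CPM was used, among 11283 genes with at least 5 CPM on average. Npas2, with r = −0.89 to Dbp, averaged less and was not among the genes ranked. The highest were Nr1d2 (0.89), Abtb1 (0.89), Tef (0.88), Bhlhe41 (0.87) and Nr1d1 (0.86). The most opposite were Slc39a10 (−0.86), Ostc (−0.84), Nfil3 (−0.83), Arsb (−0.81) and Adamts4 (−0.81). Without both HFD libraries numbered 1 these ran from 0.20 for Nr1d1 to 0.63 for Tef, and from −0.36 for Slc39a10 to 0.14 for Arsb. For Arntl the highest were Selenoh (0.82), Cars2 (0.80), Med29 (0.80), Oasl2 (0.80) and Zfp740 (0.79). The lowest were Synj2 (−0.87), Tacc2 (−0.84), Tef (−0.84), Adcyap1r1 (−0.81) and Plcl1 (−0.81). Without both HFD libraries numbered 1 these ran from 0.64 for Oasl2 to 0.87 for Selenoh, and from −0.77 for Adcyap1r1 to −0.65 for Tef. Without centring, over all 16 libraries, r with Arntl ran from 0.04 for Oasl2 to 0.77 for Zfp740. For the lowest genes it ran from −0.96 for Tef to −0.14 for Synj2, so not all of these genes shared the diet difference of Arntl. These values are descriptions of the most extreme of many genes and carry no test.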

How the data were processed

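Inguinal fat of 16 mice was sequenced as poly-A RNA with a stranded kit, per the labels' protocols. Per the submitters' processing notes, the aligner was STAR 2.7.3a and the build GRCm38.p6. The deposited counts are whole read pairs per gene, counted by the authors with featureCounts 2.0.3 on Ensembl 102 without strand, per the file headers. The authors' deposited tables of KO against WT hold shrunken log2 fold changes and p-values from DESeq2, per the submitters' processing notes, and were used only where credited.

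Counts were analysed in R 4.3.3 with edgeR 4.0.16 (filterByExpr, TMM, robust quasi-likelihood fit of 4 group means to all 16 libraries, Benjamini-Hochberg over 16549 genes, threshold 0.05). DESeq2 1.42.0 and limma 3.58.1 (voom with quality weights) were alternatives, beside other factors and filters, lymphoid and muscle scores, the replicate number as a block and each library left out in turn. The model was tested on simulated data. CPM values were scaled with TMM factors, with a prior count of 2 on the log2 scale. Correlations used 100000 shuffles within groups. Animals are separate per the labels, and no libraries agreed within sampling noise (lowest chi-square per gene 10.6). Genes and lists were chosen with earlier results of these data known. Named are the 8 genes everywhere, up to 4 called genes of each list by adjusted p in the diet comparisons (otherwise the most abundant 2) and the 5 genes most and least like Arntl and Dbp. Cry1, Cry2, Arntl2, Nr1h2 and Nr1h3 were in part named after their values were seen. One result that this rule would name is not reported here.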

Additional observations from a re-analysis of the deposited data

Results flagged for a closer look

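Each of the 8 genes was examined in each of the 4 groups for a library whose gap to its nearest neighbour, as a share of the group's range, passed the 95% critical value of Dixon's test. Of 32 groups of 4 values, 6 had such a gap, where chance gives about 1 in 20 among independent groups. These groups are not independent, since the 8 genes were measured in the same libraries and vary together, so the number of gaps cannot be read against that share. Of the 6, 4 were HFD libraries numbered 1. KO HFD replicate 1 was low in Clock (102.5 CPM, gap 0.94 of the range) and high in Dbp (42.6 CPM, gap 0.873). WT HFD replicate 1 was low in Nfil3 (5.53 CPM, gap 0.883) and high in Tef (171.0 CPM, gap 0.832). In each case the library was displaced toward the chow level. The other 2 were WT chow replicate 4, low in Clock (41.6 CPM, gap 0.84), and WT chow replicate 3, high in Nfil3 (14.6 CPM, gap 0.837). WT chow replicate 4 had T cell markers at 431.3 CPM and B cell markers at 667.6 CPM, the highest of the 16 libraries, and WT chow replicate 3 had skeletal muscle markers at 5238 CPM, also the highest. The part of these markers in the displaced values was not tested.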

How the results depend on the processing

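Arntl, Clock, Tef and Hlf kept direction and call in KO and over both genotypes under every alternative tried, and Clock and Hlf also in WT. Using only libraries merged over lanes, the WT calls of Arntl (2.12, edgeR adjusted p = 0.106), Dbp (−2.32, 0.0857) and Tef (−1.54, 0.0588) were lost, leaving 2 of the 8 genes, 2 clock repressors and 225 genes in all. Fits with fewer libraries have less power, and here WT HFD was left with replicates 1 and 2, of which replicate 1 stood apart. Counts of genes called for HFD against chow were, in WT, 1245 with no filter (5 repressors), 1050 with the replicate block and 1140 with the 8 libraries alone, and in KO 3441 with limma-voom, 1284 with no filter and 1126 with the replicate block. The labels do not give the replicate number as a pairing. Over all genes, same-numbered libraries deviated together in some pairs and apart in others (r from −0.69 to 0.55). Lymphocyte and muscle markers varied widely between animals, so these r values cannot decide whether same-numbered animals were handled together. Under the block Npas2 was not called in KO (2.47, edgeR adjusted p = 0.106), and no other call of the 8 changed.

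Leaving out single libraries gave 4 to 6 of the 8 genes in WT and 4 to 7 in KO, 4 to 9 and 5 to 9 repressors, 689 to 2400 and 745 to 2714 genes, and 4 to 13 pairs of correlated genes. In all 3 comparisons of genotypes the 1 called gene (Kmo) became 0 in limma-voom and with merged libraries. On chow and on HFD it was also 0 with no filter and with the 8 libraries alone, and 0 to 1 with single libraries left out. On each diet it was 0 without the libraries numbered 1 of KO HFD, WT HFD and KO chow, and on HFD without both HFD libraries numbered 1, settings chosen after seeing the data. Signs turned only in values that had not passed. Npas2 between genotypes over both diets became 0.0326 in limma-voom, 0.54 with merged libraries and −0.67 to 0.0645 with 1 library left out, and Hlf there −0.0182 with merged libraries. Rora in WT became −0.0526 with the lymphoid score, −0.0334 with merged libraries and −0.0879 to 0.15 with 1 library left out, and −0.00797 over both genotypes with the lymphoid score. Dbp between genotypes on HFD became 0.15 without both HFD libraries numbered 1 and 0.15 without KO chow replicate 1 as well, and −1.16 to 1.13 with 1 left out. Its interaction became 0.15, 0.10 and −1.16 to 1.14. Correlated pairs numbered 21 without centring, 17 with the muscle score, and 0 with merged libraries, without the 2 farthest libraries or without both HFD libraries numbered 1. The causes were not tested. Depth limits Npas2 most, at 4 to 176 counts.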
